A study of Mus musculus with 6 samples.

Results

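The 39 genes described here (the members) are transcripts that type I interferon induces, for proteins that act against viruses or regulate the response. They were chosen by gene symbol from textbook interferon-stimulated genes, leaving out guanylate-binding proteins, immunity-related GTPases and MHC class I genes. The choice was made with earlier results of these libraries known. All 39 were found among the 24421 genes of the count table, and all 39 passed the filter on low counts that left 11932 genes to test. RNA came from regulatory T cells (Tregs, CD4 T cells that express the transcription factor Foxp3) of mouse spleen and lymph nodes. Of 6 libraries, 3 were labelled Srebp2WT (replicates 1, 3 and 5; genotype Srebp2WT/WT-Foxp3YFPCRE+/+) and 3 Srebp2cKO (replicates 6, 7 and 8; genotype Srebp2FL/FL-Foxp3YFPCRE+/-). Both genotypes thus carried Cre recombinase with yellow fluorescent protein at Foxp3, which expresses Cre in Foxp3+ cells, and only Srebp2cKO carried floxed alleles of Srebf2, the gene for the cholesterol regulator SREBP2. The Cre alleles were given as +/+ in one genotype and +/- in the other, so the number of Cre alleles and the Srebf2 genotype cannot be told apart. The sources used here do not give strain, age, sex, treatment, the sort gate or any pooling of animals. No label ties the libraries of a genotype to separate animals, and p-values here measure the spread between libraries, which may be technical.

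Type I interferons bind a receptor made of IFNAR1 and IFNAR2, and the kinases JAK1 and TYK2 then act on transcription factors. STAT2 and IRF9 are subunits of the complex ISGF3, which binds interferon-stimulated response elements in promoters of the genes described here. Most T cells hold a low tonic level of these transcripts without infection, and interferon signalling is known to act on Treg stability and function.

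Most members had a log2 fold change below 0 in Srebp2cKO Tregs, and few passed the test. By edgeR's quasi-likelihood test at a false discovery rate of 0.05, 6 of the 39 members fell (Rsad2, Mx1, Oas1a, Irf7, Rtp4 and Ifit1) and 1 rose (Ifit2). Over all tested genes, 4.24% were called lower and 2.37% higher. An unadjusted p under 0.05 by edgeR was reached by 25 of the 39 members and by 3471 of 11932 tested genes. The median log2 fold change of the members was -0.33, against 0.00 over all tested genes, and 34 of 39 members were below 0, against 5968 of 11932 genes. All 3 Srebp2cKO libraries lay below all 3 Srebp2WT libraries for 20 members, against 15.5% of tested genes, and above them for 3 members (Ifit2, Samhd1 and Sp100), against 16.0%. In bulk RNA such as this, fewer cells of a type and less RNA per cell cannot be told apart. Levels below are in CPM, counts scaled to a common library size with TMM factors. With DESeq2, 13 members were lower and 1 higher, where 6.78% of genes were lower and 5.46% higher.

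**Figure D1:**
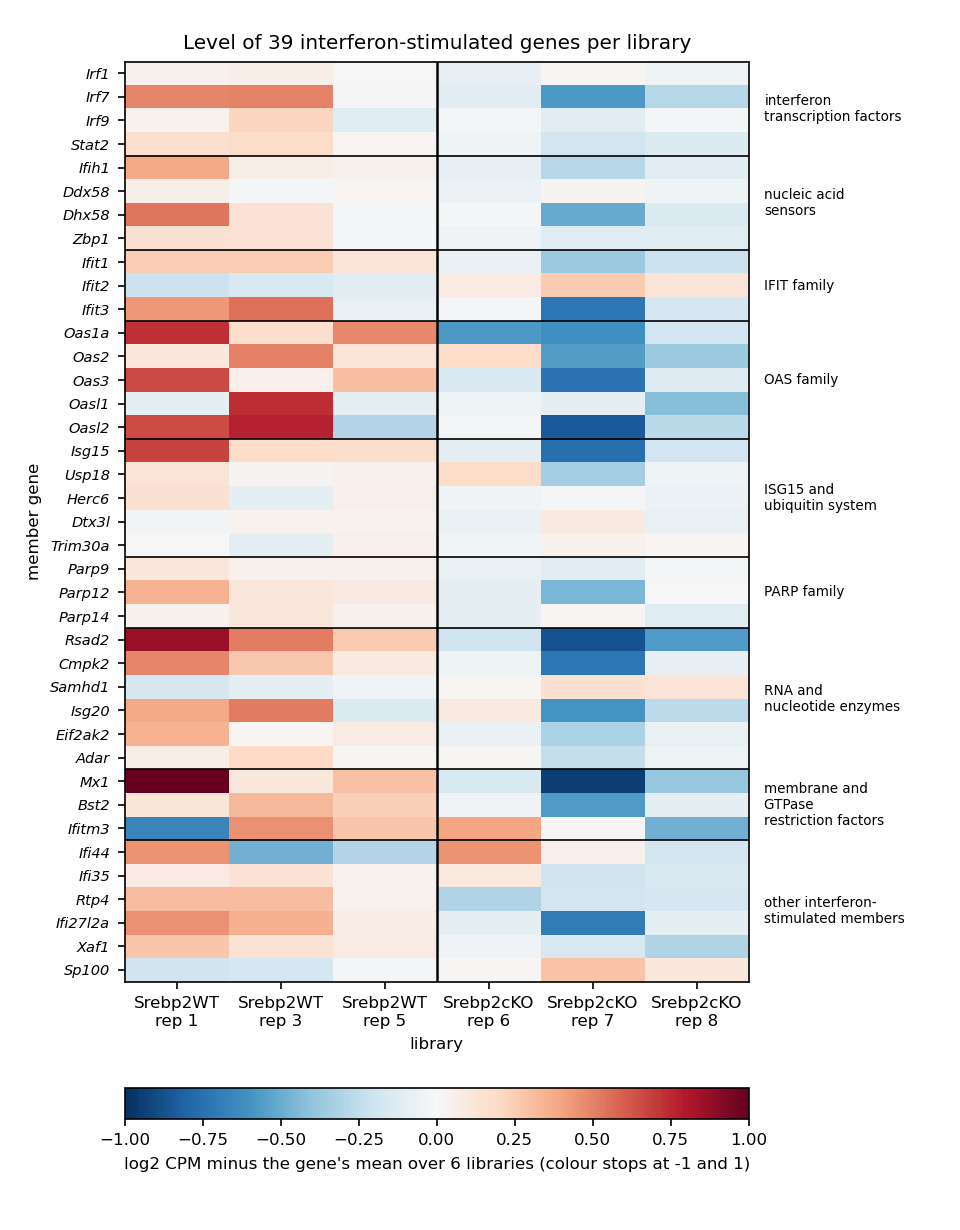
Heat map of the 39 members (rows, grouped by role) in the 6 libraries (columns, Srebp2WT left of the line and Srebp2cKO right); colour is log2 CPM (TMM-scaled) minus the gene's mean over the 6 libraries. Srebp2WT replicates 1 and 3 hold the highest level for 17 and 16 members, and Srebp2cKO replicate 7 the lowest for 23.

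**Figure D2:**
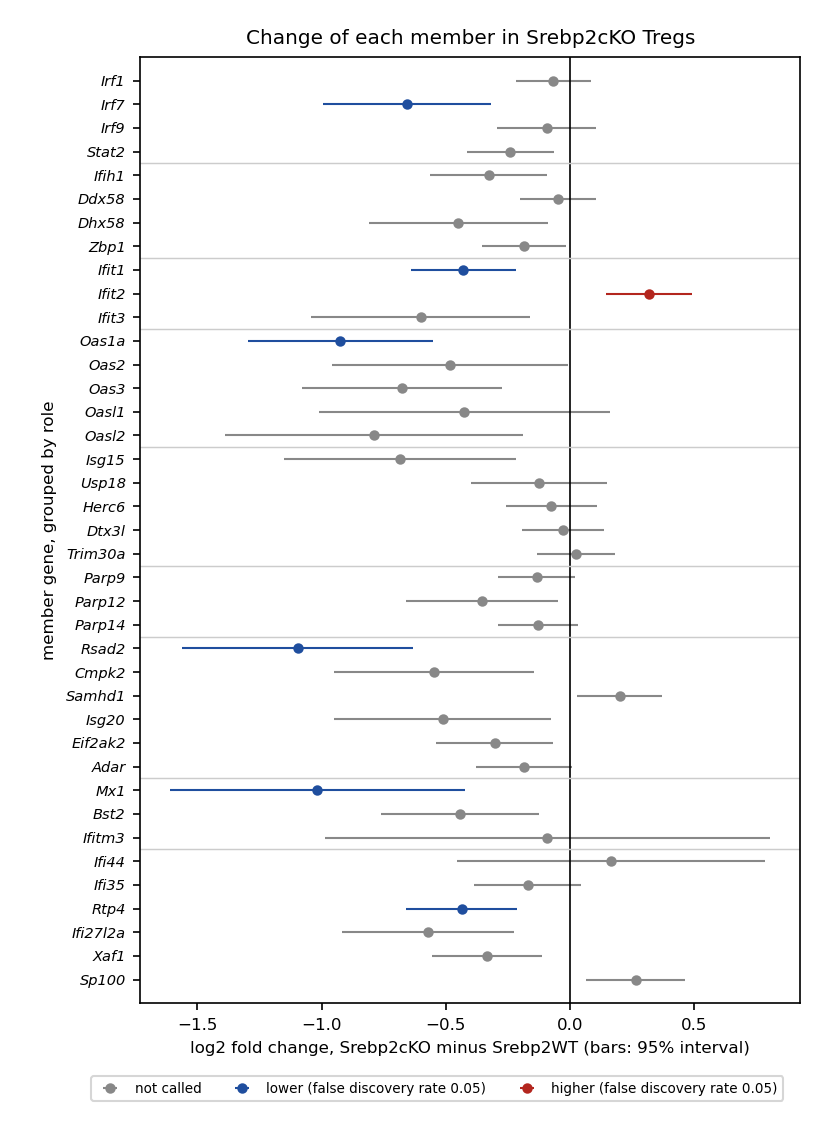
Log2 fold change of each member, Srebp2cKO minus Srebp2WT, from edgeR (points) with its 95% interval (bars), n = 3 libraries per genotype; blue and red points passed a false discovery rate of 0.05. The 6 blue points lie between -1.10 and -0.43, and Ifit2 is the 1 red point, at 0.32.

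The libraries of a genotype differed among themselves. The mean deviation of the 39 members, in log2 CPM from each gene's mean over the 6 libraries, was 0.25, 0.18 and 0.05 in Srebp2WT replicates 1, 3 and 5. It was -0.03, -0.31 and -0.14 in Srebp2cKO replicates 6, 7 and 8. The genotypes did not overlap, but Srebp2WT replicate 5 and Srebp2cKO replicate 6 lay close to each other. The number of members called lower moved with the library left out. It was 0 without Srebp2WT replicate 1, where 16 members had an edgeR unadjusted p under 0.05, against 25 with all libraries. The number called lower was 1 without Srebp2WT replicate 3 (Oas1a), and 2 when either Srebp2cKO replicate 7 or 8 was left out. Without Srebp2WT replicate 5 it was 10, and without Srebp2cKO replicate 6 it was 13. Calls over all tested genes moved the same way, with 135, 155, 223 and 343 genes called lower without Srebp2WT replicates 1 and 3 and Srebp2cKO replicates 7 and 8, and 662 and 787 without Srebp2WT replicate 5 and Srebp2cKO replicate 6, against 506 with all libraries. The median of the members ranged only from -0.38 to -0.23 over these 6 fits.

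Libraries in this series also differ in how log2 CPM follows the GC content of transcripts, and that slope ran in nearly the order of the member level. Per 10 points of GC it was 0.15, 0.18 and 0.02 in Srebp2WT replicates 1, 3 and 5, and 0.01, -0.25 and -0.12 in Srebp2cKO replicates 6, 7 and 8. The members' median transcript GC was 49.4%, near the 49.5% of all tested genes. With the GC trend removed from each library, the mean member deviation was 0.26, 0.19 and 0.05 in Srebp2WT and -0.03, -0.32 and -0.15 in Srebp2cKO. As the members' median GC is near that of all tested genes, removing the trend could move their mean only little. Whether what sets the slope also sets the member level was not tested. In the fit with the GC trend removed 8 members were called lower (3.85% of all tested genes) and 0 higher (1.99% of all tested genes). There, 28 members had an unadjusted p under 0.05, against 25 before that step. The 6 members that fell without that step passed there too, joined by Ifih1 and Xaf1, while the call for Ifit2 was lost.

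**Figure D3:**
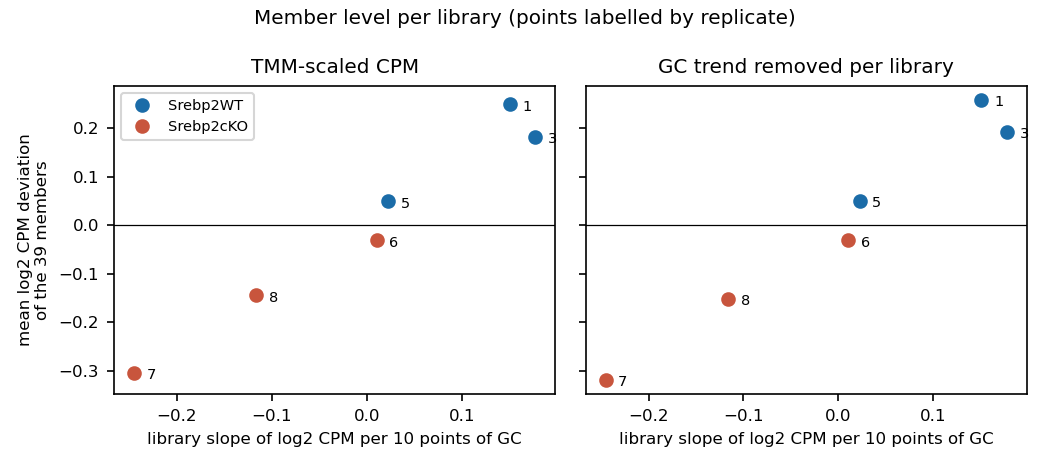
Mean log2 CPM deviation of the 39 members per library (y axis) against the library's slope of log2 CPM per 10 points of transcript GC (x axis), before (left) and after (right) the GC trend was removed; points are libraries labelled by replicate. With the trend removed the member level runs from 0.26 to -0.32, with all Srebp2WT points above all Srebp2cKO points. The members' median GC is near that of all tested genes, so this step could move their mean only little.

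Each library held between 13918321 and 17249898 counts. Srebf2 was at 6.66% of its Srebp2WT level in Srebp2cKO (log2 fold change -3.91, edgeR adjusted p = 1.5e-08). The Treg markers Foxp3, Il2ra, Ctla4, Ikzf2, Cd4 and Cd3e summed to 4109 to 4233 CPM in Srebp2WT and 4115 to 4216 in Srebp2cKO. Within these sums, markers moved both ways. Il2ra (means of 691 and 920 CPM) and Ctla4 (331 and 388) were separated upwards. Ikzf2, the largest part (1591 and 1326 CPM), and Cd3e (630 and 593) were separated downwards. Of the 6, edgeR called only Il2ra, which rose, and DESeq2 called 1 higher and 1 lower. Summed markers of B cells, myeloid cells and plasmacytoid dendritic cells, which make or respond to interferon, were lower in every Srebp2cKO library. Summed CPM of 6 B cell markers was 56.4 to 77.4 in Srebp2WT and 26.0 to 34.7 in Srebp2cKO, and 3 of the 4 tested fell (Cd79b, Cd22 and Cd74). Cd74 was the largest part of that sum, with means of 39.2 and 17.7 CPM. Cd79a, the other tested, went the other way with means of 0.674 and 0.996 CPM. It was separated upwards and not called (log2 fold change 0.56, edgeR adjusted p = 0.308). For 7 myeloid markers the summed CPM was 50.4 to 82.8 and 33.5 to 39.6, and 1 of the 2 tested fell (Cybb). Cybb made up most of that sum, with means of 60.7 and 33.1 CPM, while the other tested marker, Itgam, stood at 0.960 and 2.03 CPM and was not called (log2 fold change 1.07, edgeR adjusted p = 0.108). For 6 plasmacytoid dendritic cell markers it was 55.9 to 67.2 and 45.7 to 51.2, and 1 of the 4 tested fell (Runx2, which T cells also express). By its means of 38.2 and 23.5 CPM, Runx2 was the largest part of that sum. Ccr9 followed with means of 15.8 and 18.8 CPM and was not called (log2 fold change 0.24). The median log2 fold change of the 4 tested was 0.07. Ly6d was separated upwards at 1 to 8 and 12 to 25 counts and not called (1.83, edgeR adjusted p = 0.0763). Srebp2WT replicate 1 had the highest sum in each of these 3 lists. The defining markers were at or near 0, with at most 2 counts of Ms4a1, 2 of Siglech and 5 of Lyz2 in a library, and 0 of Itgax in all. Sums for natural killer cells overlapped (4.83 to 5.95 and 4.26 to 7.74), where Klrb1c, 1 of the 2 tested, fell and Ncr1 was at 0 in all. Eomes, the other tested, had means of 3.21 and 5.08 CPM and was not called (log2 fold change 0.66, edgeR adjusted p = 0.170). Sums for the CD8 T cell markers Cd8a and Cd8b1 were 6.97 to 7.39 and 8.77 to 10.5, and Cd8b1, the 1 tested, was not called. By edgeR the calls of Cd22, Cd74 and Runx2 held in all 16 alternatives. That of Il2ra was lost without Srebp2WT replicate 3, that of Cybb without Srebp2cKO replicate 7, that of Cd79b with limma-voom, with the GC trend removed and without any 1 library but Srebp2cKO replicate 6, and that of Klrb1c without any 1 but Srebp2WT replicate 5. The part of these markers in the members' lower levels was not tested.

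Promoter sequences are shown because interferon response elements are the known shared feature of these genes. RefSeq windows of 300 bases (250 before to 50 after a gene's start, GRCm38.p6) were matched by symbol for 30 of the 39 members. The core of the response element was searched as GAAANNGAAA, 2 GAAA half-sites 2 bases apart, on both strands, so that a match on the other strand reads as paired TTTC. At least 1 match was found in 13 of 30 members (43.3%), against 3.99% of 27025 genes with such a window. The stretches below hold every match that lies wholly before the start of a member, with up to 30 bases on either side. They run 5′ to 3′ on the gene's strand, with the matched bases in capitals. The matches in Ddx58, Eif2ak2, Ifih1 and Ifitm3, and one in a second window of Trim30a, lie after the start and are not shown.
Stat2, chr10:128270248-128270315, plus strand: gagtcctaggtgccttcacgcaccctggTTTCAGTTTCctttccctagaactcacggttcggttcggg
Ifit1, chr19:34640755-34640843, plus strand: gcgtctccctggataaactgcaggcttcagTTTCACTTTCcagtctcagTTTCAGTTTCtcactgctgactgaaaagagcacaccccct
Ifit3, chr19:34583343-34583446, plus strand: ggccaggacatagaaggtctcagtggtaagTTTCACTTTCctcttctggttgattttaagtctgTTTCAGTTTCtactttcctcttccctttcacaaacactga
Oas1a, chr5:120907526-120907575, minus strand: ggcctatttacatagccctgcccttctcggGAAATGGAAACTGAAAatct
Oas3, chr5:120777695-120777764, minus strand: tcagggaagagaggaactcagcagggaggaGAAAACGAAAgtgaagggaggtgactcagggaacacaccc
Isg15, chr4:156200845-156200926, minus strand: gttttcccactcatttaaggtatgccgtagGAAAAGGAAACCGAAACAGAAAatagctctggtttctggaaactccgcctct
Trim30a, chr7:104465194-104465259, minus strand: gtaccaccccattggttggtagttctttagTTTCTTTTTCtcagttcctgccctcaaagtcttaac
Rsad2, chr12:26456533-26456602, minus strand: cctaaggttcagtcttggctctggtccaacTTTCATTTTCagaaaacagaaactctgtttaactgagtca
Bst2, chr8:71537557-71537632, minus strand: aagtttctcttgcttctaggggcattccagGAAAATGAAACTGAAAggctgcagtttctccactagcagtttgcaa

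The matches overlap one another in Isg15, Oas1a and Bst2, where half-sites follow in a run, and stand apart in Ifit1 and Ifit3. Of the 13 members with a match, 3 were called lower (Ifit1, Oas1a and Rsad2) and 9 had all Srebp2cKO libraries below all Srebp2WT libraries, with a median log2 fold change of -0.43 and a median transcript GC of 47.5%. Of the 17 members with a window and no match, 1 was called lower and 1 higher, 5 were separated downwards, and the median was -0.17, at a median GC of 49.4%. Mx1 and Rtp4, also called lower, had no window and are in neither set. Trim30a, with a match, had a log2 fold change of 0.02 (-0.19 with the GC trend removed). Both windows of Ifit2, the member that rose, held no match to these letters. The GAS element, known from interferon gamma responses, was searched as TTCNNNGAA (its own reverse complement) and matched in 10 of 30 members (33.3%) against 9.55% of all genes with a window. Members with a GAS match had a median of -0.18 and those without a median of -0.34. A match is a run of letters and not a bound site, and these medians are descriptions.

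Upstream of the members, the ligands of the pathway were almost undetected in these libraries and no receptor gene fell. Of 20 interferon genes other than Ifng, 17 had 0 counts in every library and none had more than 2 counts in any library. Interferon made by cells outside these libraries was not measured. Ifng itself, interferon gamma, stood at 3.13 ± 0.521 CPM in Srebp2WT and 3.31 ± 1.80 in Srebp2cKO (mean ± SD, n = 3 libraries here and below) and was not called (log2 fold change 0.10, edgeR adjusted p = 0.870). Of 5 tested receptor genes, 2 rose and 0 fell, and both encode chains of the interferon gamma receptor. Ifngr1 stood at 190, 206 and 221 CPM in Srebp2WT and 257, 256 and 274 in Srebp2cKO (log2 fold change 0.35, SE 0.08, adjusted p = 0.0296). Ifngr2 stood at 40.9, 49.0 and 44.8 against 60.7, 69.3 and 54.3 CPM (0.45, SE 0.11, adjusted p = 0.0370). The type I receptor genes Ifnar1 (log2 fold change 0.15, adjusted p = 0.210) and Ifnar2 (0.11, adjusted p = 0.368) were not called. The Ifngr1 call was lost without Srebp2WT replicate 1 or 3 or Srebp2cKO replicate 7 or 8, and the Ifngr2 call without any 1 Srebp2WT replicate or Srebp2cKO replicate 7 (highest adjusted p = 0.14 and 0.16).

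Among the kinases and their targets, Tyk2, the kinase bound to IFNAR1, fell from 140, 143 and 134 CPM to 117, 86.8 and 108 CPM (log2 fold change -0.43, SE 0.10, edgeR adjusted p = 0.0388). Its call was lost with the GC trend removed and without Srebp2WT replicate 1 or 3 or Srebp2cKO replicate 7 or 8 (highest adjusted p = 0.14). Of the 5 genes in this list, 1 was called lower and 0 higher, against 4.24% and 2.37% of all tested genes. Jak1 was separated upwards at 921, 1038 and 1135 against 1146, 1399 and 1222 CPM. It was not called (log2 fold change 0.28, edgeR adjusted p = 0.107). Among interferon regulatory factors outside the members, Irf5, which acts below Toll-like receptors, fell (20.9, 20.4 and 17.3 to 11.5, 10.7 and 10.9 CPM, edgeR adjusted p = 0.00522). Its call held in all 16 alternatives. None of 9 negative regulators and none of 13 tested sensors and adaptors was called by edgeR. An unadjusted p under 0.05 was reached by 3 and 4 of them, against 3471 of 11932 tested genes. DESeq2 and limma-voom also called 0 in both lists.

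A second list of 50 tested interferon-stimulated genes outside the members did not show the members' lower median. Of these, 2 fell and 3 rose by edgeR, against 4.24% and 2.37% of all tested genes, 27 were below 0 and the median log2 fold change was -0.03. DESeq2 called 6 lower and 4 higher, where 6.78% of genes were lower and 5.46% higher. The genotypes were separated downwards for 9 and upwards for 7, against 15.5% and 16.0% of tested genes. The genes that fell were Ccl5, a chemokine (6.31 ± 0.254 to 1.76 ± 0.253 CPM, adjusted p = 0.00116), and Tor3a, a torsin ATPase (25.7 ± 3.56 to 18.1 ± 1.63 CPM, edgeR adjusted p = 0.0426). Those that rose were Ms4a4b, Ms4a4c and Ms4a6b, members of a membrane protein family, with log2 fold changes of 0.55, 0.60 and 0.39 (edgeR adjusted p = 0.0222, 0.00601 and 0.0268). The Ccl5 call held in all 16 alternatives, and that of Ms4a4c was lost with the GC trend removed. Those of Tor3a, Ms4a4b and Ms4a6b were each lost without Srebp2WT replicate 1 or 3 or Srebp2cKO replicate 7 or 8, and that of Ms4a6b with the GC trend removed. The difference between the 2 lists was not tested, and the members were chosen with earlier results of these libraries known.

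**Figure D4:**
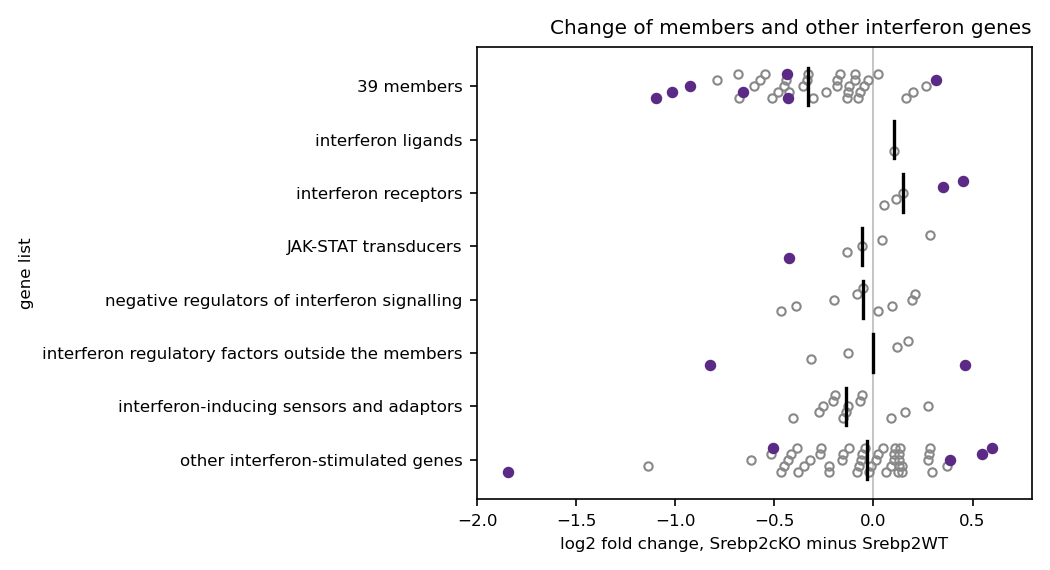
Log2 fold change, Srebp2cKO minus Srebp2WT (x axis), of each tested gene in the 39 members and in 7 other lists of the pathway (rows); filled points passed a false discovery rate of 0.05 and black lines are list medians. The members' median lies at -0.33 and that of the other interferon-stimulated genes at -0.03, and all 5 tested receptor genes lie above 0.

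The transcription factors of the response split into one that fell and others that did not pass. Irf7, which amplifies type I interferon transcription and is itself induced by interferon, lies at chr7:141262706-141266481 (GRCm38). It stood at 70.6, 70.9 and 49.8 CPM in Srebp2WT and 46.6, 33.7 and 41.2 in Srebp2cKO. The groups did not overlap, though Srebp2WT replicate 5 was only slightly above Srebp2cKO replicate 6. The level fell to 63.4% (log2 fold change -0.66, SE 0.15, edgeR adjusted p = 0.0333). The call was lost without Srebp2WT replicate 1 or 3 or Srebp2cKO replicate 7 or 8 (highest adjusted p = 0.14), and the exons overlap Phrf1 on the opposite strand. Stat2, the ISGF3 subunit that carries the transactivation domain, stood at 116, 118 and 105 against 101, 91.9 and 94.97 CPM. Its groups did not overlap either, but it was not called (-0.24, adjusted p = 0.0853). Irf9, the DNA-binding subunit of ISGF3, stood at 147 ± 16.9 and 137 ± 4.81 CPM (95% interval of the log2 fold change -0.29 to 0.11). Irf1, induced mainly by interferon gamma, stood at 285 ± 7.21 and 272 ± 9.26 CPM (-0.22 to 0.09). Both overlapped between the genotypes.

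None of the 4 sensors of foreign nucleic acid was called by edgeR. An unadjusted p under 0.05 was reached by 3 of them, against 3471 of 11932 tested genes. DESeq2 called 1 of them lower, Ifih1, and limma-voom 0. Ifih1, which encodes the long double-stranded RNA sensor MDA5, stood at 92.5, 74.1 and 73.0 CPM in Srebp2WT and 67.1, 58.5 and 65.6 in Srebp2cKO. Every Srebp2cKO library was below every Srebp2WT library (log2 fold change -0.33, SE 0.11, adjusted p = 0.0835). Dhx58, for the regulator LGP2, had a log2 fold change of -0.45 (adjusted p = 0.107) and overlapped by a hair, with 25.1 CPM in the lowest Srebp2WT and the highest Srebp2cKO library. Zbp1, a sensor of Z-form nucleic acid, stood at 129, 128 and 115 against 113, 107 and 107 CPM, separated and not called (-0.18, adjusted p = 0.143). Ddx58, for the sensor RIG-I, was close between the genotypes at 145 ± 3.63 and 141 ± 4.54 CPM (95% interval -0.20 to 0.10).

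The IFIT genes, whose proteins bind viral RNA, split, with Ifit1 lower and Ifit2 higher in Srebp2cKO. They lie close together on chromosome 19, Ifit2 at chr19:34550694-34576419, Ifit3 at chr19:34583531-34588731 and Ifit1 at chr19:34640871-34650009. Ifit1, which recognises RNA caps that lack methylation, stood at 57.3, 57.3 and 52.8 CPM in Srebp2WT. In Srebp2cKO it stood at 45.8, 37.2 and 41.4 CPM, below all Srebp2WT libraries (log2 fold change -0.43, SE 0.10, edgeR adjusted p = 0.0291). The call was lost without Srebp2WT replicate 1 or 3 or Srebp2cKO replicate 7 or 8 (highest adjusted p = 0.12). Ifit3, which binds and stabilises IFIT1, stood at 24.9, 27.0 and 17.5 against 18.2, 11.2 and 16.4 CPM. Its groups overlapped and it was not called (-0.60, adjusted p = 0.0880). Its transcripts share 51.2% of their 50-base words with other genes, mostly the copy Ifit3b, so its count is uncertain.

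Ifit2, a partner of both, stood at 76.6, 80.3 and 82.8 CPM in Srebp2WT and 94.3, 107 and 97.7 in Srebp2cKO. All Srebp2cKO libraries were above all Srebp2WT libraries, and it rose (log2 fold change 0.32, SE 0.08, adjusted p = 0.0402). With the GC trend removed its log2 fold change was 0.14 and the call was lost (adjusted p = 0.22). The call was also lost with scaling to total counts and without Srebp2cKO replicate 7 or 8 or any 1 Srebp2WT replicate. Counts of Ifit2 for each count of Ifit1 do not depend on scaling, and both have low GC (42.0% and 43.3%). This ratio was 1.34, 1.40 and 1.57 in Srebp2WT and 2.06, 2.87 and 2.36 in Srebp2cKO. It was 1.68-fold higher in Srebp2cKO. As Ifit2 was separated upwards and Ifit1 downwards in the same libraries, the ratio could not overlap between the genotypes. Its exact two-sided permutation p of 0.1, the smallest that 3 against 3 allow, was fixed by those separations and adds nothing to them. The ratio does not show which of the 2 genes changed. The pair was chosen after its values were seen.

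**Figure D5:**
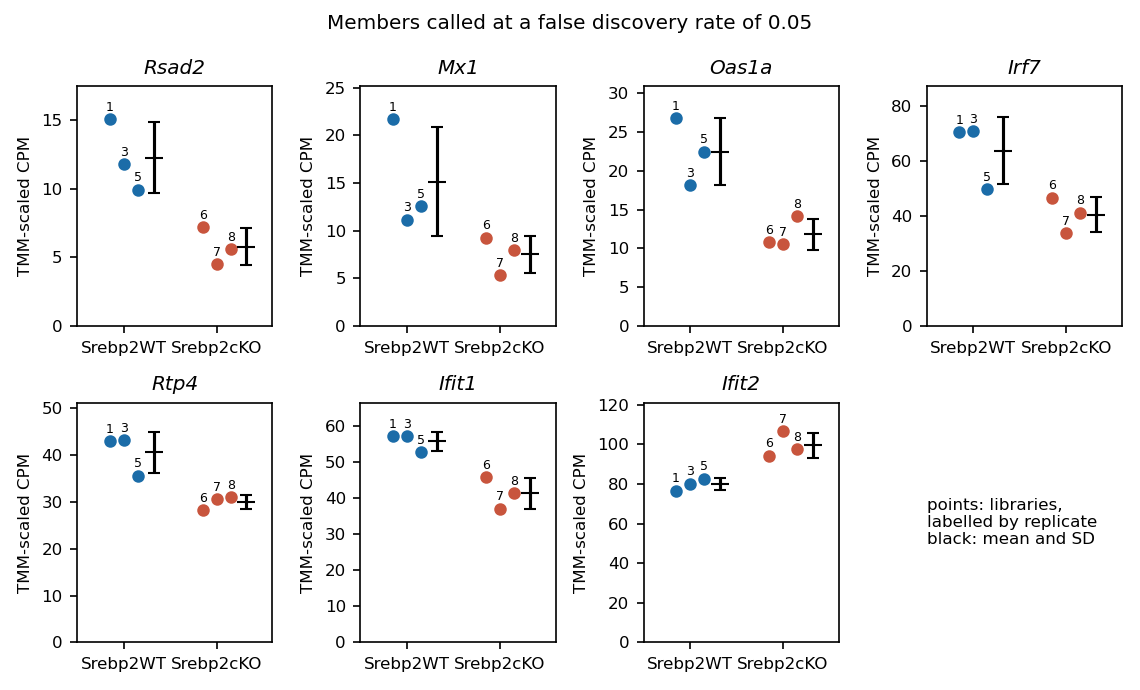
TMM-scaled CPM (y axis, from 0) of the 7 members called at a false discovery rate of 0.05, in Srebp2WT (blue) and Srebp2cKO (red) libraries labelled by replicate, with mean and SD in black (n = 3). No panel has overlapping genotypes, and Srebp2WT replicate 1 stands apart for Mx1 at 21.7 CPM.

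The 5 genes of the OAS family, whose active enzymes make short oligoadenylates that switch on RNase L, were all below 0, with a median log2 fold change of -0.68, and 1 of them fell. Oas1a, at chr5:120896256-120907521, stood at 26.8, 18.2 and 22.5 CPM in Srebp2WT and 10.8, 10.5 and 14.1 in Srebp2cKO. It fell to 52.7% (log2 fold change -0.92, SE 0.17, edgeR adjusted p = 0.0144). Its call was lost only without Srebp2WT replicate 1 (adjusted p = 0.065) among the 16 alternatives tried. Its transcripts share 57.6% of their 50-base words with other genes, mostly Oas1g, which had at most 1 count in a library. Oas3, the long RNA-sensing member at chr5:120753098-120777661, stood at 53.7, 35.2 and 41.8 against 30.5, 20.3 and 31.0 CPM. It was separated between the genotypes and just missed the threshold (-0.68, SE 0.18, adjusted p = 0.0516).

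Oasl2, an OAS-like gene, stood at 19.7, 21.4 and 10.3 CPM in Srebp2WT and 12.4, 7.03 and 10.4 in Srebp2cKO. Srebp2WT replicate 5 lay within the Srebp2cKO range, and the gene was not called (-0.79, SE 0.27, adjusted p = 0.0957). Oas2, another active synthetase, stood at 8.77 ± 1.39 and 6.31 ± 1.76 CPM (adjusted p = 0.165). Oasl1, an inactive relative that represses IRF7 translation, stood at 5.29 ± 1.89 and 3.95 ± 0.547 CPM (adjusted p = 0.304). Both overlapped between the genotypes.

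In the ISG15 and ubiquitin group 0 of 5 members were called by edgeR, DESeq2 called 1 lower and limma-voom 0. By edgeR 1 member had an unadjusted p under 0.05, against 3471 of 11932 tested genes. That member was Isg15, the ubiquitin-like protein attached to others after interferon. It stood at 13.2, 9.41 and 9.34 CPM in Srebp2WT and 7.78, 4.90 and 7.23 in Srebp2cKO. The genotypes were separated (log2 fold change -0.69, SE 0.21, adjusted p = 0.0737). Usp18, which removes ISG15 and restrains the receptor, stood at 37.1 ± 1.45 and 34.1 ± 6.08 CPM. Herc6, the main ISG15 ligase of mice, stood at 79.4 ± 6.83 and 75.4 ± 1.28 CPM. Neither differed beyond its spread, and nor did Dtx3l or Trim30a, whose 95% intervals were -0.19 to 0.14 and -0.13 to 0.18.

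The 3 PARP genes, for ADP-ribosyltransferases, were each lower in all Srebp2cKO libraries, but by small amounts. By edgeR, DESeq2 or limma-voom 0 were called. With edgeR 1 had an unadjusted p under 0.05, against 3471 of 11932 tested genes. Parp12 stood at 25.3, 21.5 and 21.2 against 18.7, 14.5 and 19.9 CPM (log2 fold change -0.35, adjusted p = 0.124). Parp14, the largest protein of the group, stood at 487, 510 and 485 against 444, 477 and 434 CPM, and Parp9 at 133, 126 and 127 against 116, 114 and 121 CPM. Both had a log2 fold change of -0.13. Parp9 and Dtx3l, whose proteins form a complex, lie head to head on chromosome 16 with exons that overlap on opposite strands. Their counts cannot be told apart there if strand was not used.

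Enzymes acting on RNA and nucleotides held the largest fall among the members, in Rsad2, while 4 of the 6 were separated downwards and 1 upwards. Rsad2 encodes viperin, which makes a chain-terminating nucleotide, and lies at chr12:26442746-26456452. It stood at 15.1, 11.8 and 9.95 CPM in Srebp2WT and 7.20, 4.52 and 5.60 in Srebp2cKO, from 241, 183 and 147 and 98, 70 and 96 counts. It fell to 46.8% (log2 fold change -1.10, SE 0.21, edgeR adjusted p = 0.0184), and without Srebp2WT replicate 1 or 3 the call was lost (highest adjusted p = 0.08). Its head-to-head neighbour Cmpk2 (chr12:26469204-26479837), a nucleotide kinase, stood at 20.0, 17.2 and 15.2 against 13.7, 8.645 and 13.5 CPM. That gene too was separated, and was not called (-0.55, SE 0.18, adjusted p = 0.0882).

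Eif2ak2, for the double-stranded RNA-activated kinase PKR, stood at 91.2, 72.9 and 76.2 CPM in Srebp2WT and 68.7, 57.7 and 68.4 in Srebp2cKO. It was separated and not called (-0.30, adjusted p = 0.102). Adar, the adenosine-to-inosine editing enzyme, was also separated at 262, 286 and 253 against 252, 212 and 241 CPM, by less than 1 CPM (-0.18, adjusted p = 0.185), and its exons overlap Chrnb2 on the other strand. Isg20, an exonuclease, overlapped (20.9 ± 4.68 and 14.7 ± 3.48 CPM, -0.51, adjusted p = 0.123). Samhd1, which degrades deoxynucleotides, went the other way. It stood at 1046, 1099 and 1143 CPM in Srebp2WT and 1188, 1306 and 1282 in Srebp2cKO, separated upwards and not called (0.20, SE 0.08, adjusted p = 0.125).

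Of 3 restriction factors, Mx1 fell and the others did not pass. Mx1, a dynamin-like GTPase that traps viral ribonucleoproteins and is defective in many laboratory strains, lies at chr16:97447035-97462907. It stood at 21.7, 11.1 and 12.6 CPM in Srebp2WT and 9.25, 5.35 and 7.93 in Srebp2cKO. Srebp2WT replicate 1 was far above the rest, and the call was narrow (log2 fold change -1.02, SE 0.27, edgeR adjusted p = 0.0495). It was lost with upper-quartile scaling, with limma-voom and without Srebp2WT replicate 1 or 3 or Srebp2cKO replicate 7 or 8 (highest adjusted p = 0.18). Bst2, for tetherin, which holds budding virus at the membrane and is abundant on plasmacytoid dendritic cells, stood at 21.2, 24.4 and 22.9 against 19.0, 13.2 and 18.2 CPM. It was separated and not called (-0.44, SE 0.14, adjusted p = 0.0838). Ifitm3, which blocks virus entry, had 9 to 19 counts per library, and no difference was detectable at that depth (95% interval -0.99 to 0.81).

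Among the remaining members, Rtp4, a receptor chaperone also known as a brake on interferon signalling (chr16:23520291-23614222), stood at 43.0, 43.2 and 35.6 CPM in Srebp2WT and 28.3, 30.6 and 31.0 in Srebp2cKO. It fell to 73.9% without overlap (log2 fold change -0.44, SE 0.10, edgeR adjusted p = 0.0333). The call was lost without Srebp2WT replicate 1 or 3 or Srebp2cKO replicate 7 or 8 (highest adjusted p = 0.16), and 11.6% of its 50-base words are shared with other genes, mostly Gm45338, whose exons overlap it. Ifi27l2a, of the ISG12 family, stood at 118, 111 and 90.6 against 80.9, 53.2 and 81.2 CPM and narrowly missed the threshold (-0.57, SE 0.16, adjusted p = 0.0550). Xaf1, a pro-apoptotic partner of XIAP, was separated at 40.4, 36.8 and 35.4 against 32.5, 29.8 and 27.1 CPM (-0.33, adjusted p = 0.0689). Sp100, of PML nuclear bodies, was the third member separated upwards, at 438, 449 and 496 against 507, 613 and 541 CPM (0.26, SE 0.09, adjusted p = 0.0942). Ifi35 (46.4 ± 1.77 and 41.3 ± 4.67 CPM) and Ifi44 (4.17 ± 1.51 and 4.71 ± 1.07 CPM) overlapped and were not called.

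Levels between genes were compared as CPM per kilobase of the longest GENCODE M21 transcript, averaged over the Srebp2WT libraries. Samhd1 (279), Ifi27l2a (230), Irf1 (133.5) and Sp100 (121) were the most abundant members, and Ifi44 (1.03) and Ifitm3 (1.41) the least. The 13 most abundant members had a median log2 fold change of -0.09 with 0 called lower. The next 13 had a median of -0.33 with 3 called lower, and the 13 least abundant a median of -0.55 with 3 called lower. Across the 39 members, the Spearman correlation of log2 fold change with level per kilobase was 0.52, and with transcript GC -0.39. Over 11459 tested genes with a transcript GC these were 0.18 and -0.50. Such correlations are across genes that share libraries, and level and fold change share the Srebp2WT counts.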

How the data were processed

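Per the labels' protocols, libraries were made with KAPA RNA HyperPrep with RiboErase, which removes rRNA, from RNA taken up with Qiagen RNeasy. What the authors deposited were raw read counts per gene symbol for 6 libraries, 3 per genotype. The submitters' processing notes name HISAT2 2.2.1, mm10 and Cell Ranger with no roles. The counting tool, annotation and use of strand: not given in the sources used here.

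Genes were filtered with edgeR 4.0.16 (filterByExpr, R 4.3.3), scaled by TMM and put through its quasi-likelihood F test, Srebp2cKO against Srebp2WT without covariates. P-values were Benjamini-Hochberg adjusted over all 11932 tested genes and called at a false discovery rate of 0.05, and intervals are at 95%. Between 13918321 and 17249898 counts per library gave a common dispersion of 0.0112. Replicates were compared by chi-square (6.71 to 34.8 per degree of freedom), so no pair agreed within sampling noise. On simulated counts for 11832 genes, 86% of 2-fold and 54.5% of 1.5-fold changes were recovered with 14 false calls. Each gene was drawn on its own, without the GC trends of the libraries, so these rates may not hold for the real counts.

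The members and gene lists were chosen with earlier results of these data known. All members are accounted for. Called members, the lowest p of a role group with none called, and members whose genotypes do not overlap are given per library. Called genes of the other lists are named, except that some genes of these lists are not reported here. Each alternative changed 1 choice: DESeq2 1.42.0 or limma-voom (limma 3.58.1) as the test, scaling by RLE, by the upper quartile or by total counts, robust dispersion, all genes kept, only genes with 1 CPM or more in 3 libraries kept, a false discovery rate of 0.1, removal of a loess trend on transcript GC, and leaving out each library. Coordinates, lengths, GC and the share of 50-base words held by other genes came from GENCODE M21 (GRCm38, the build mm10), and promoter windows from RefSeq (GRCm38.p6). A mean or SD is over the libraries of a genotype.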

Additional observations from a re-analysis of the deposited data

How the results depend on the processing

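No paired analysis was possible because the genotypes share no replicate numbers. All 789 calls over the table became 1404 with DESeq2, 1205 with no filter, 1893 at a false discovery rate of 0.1, and 167 to 1487 when each library was left out in turn. Members called lower, 6 in the fit reported, were 13 with DESeq2, 11 with no filter and 16 at a false discovery rate of 0.1. Over the libraries left out they were 0 to 13. Of all genes, 506 of 11932 were lower in the fit reported and 778 of 11467 with DESeq2. With no filter 732 of 16308 were lower, and at a false discovery rate of 0.1 it was 1032 of 11932. Members called higher, 1 in the fit reported, were 0 with scaling to total counts and 0 with the GC trend removed. They were 2 at a false discovery rate of 0.1, where 861 of 11932 tested genes were higher, and 0 to 2 over the libraries left out. Scaling to total counts called 184 genes higher and 570 lower, against 283 and 506. The median of the members stayed within the spread between libraries in all 15 alternatives, from -0.38 to -0.23 over the libraries left out, and 32 to 35 of 39 members were below 0 in each fit. Signs turned for genes near 0 or with few counts. With the GC trend removed Irf1 was at 0.0080, Trim30a at -0.19, Ifi44 at -0.055, Ifng at -0.044 and Foxp3 at 0.064 (log2 fold changes). With scaling to total counts Trim30a was at -0.010. Over the libraries left out, Dtx3l ranged from -0.088 to 0.0022, Trim30a from -0.017 to 0.055, Ifitm3 from -0.36 to 0.13, Ifi44 from -0.019 to 0.50 and Ifng from -0.44 to 0.36. Fewer samples or another number of tested genes enter the fits with a library left out or no filter, and otherwise the cause was not tested. For Ifitm3, Ifi44, Oasl1 and Ifng, low counts limit what a difference can show.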
